A study of Mus musculus with 2 samples.

Results

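Fpr1 and Fpr2, the mouse genes of the formyl peptide receptors, and Anxa1, the gene of annexin A1, were followed through the cells of the postischemic kidney. The 3 genes were found by symbol among the 32285 genes counted, and all 3 were detected in both libraries. They were chosen with their levels by leukocyte type and their differences between the libraries already in view, so those values are given below as a description. Their unique molecular identifiers (UMIs, each standing for 1 captured transcript) were summed over the barcodes of each cell class, and a level is the summed UMIs per 1000000 UMIs of the class (CPM).

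The data came from 2 droplet libraries of the 3' ends of transcripts, 1 from each of 2 mice, both made from a kidney collected on day 14 after unilateral ischemia reperfusion injury. Adult male mice, 8 to 10 weeks old, had 1 renal artery clamped for 25 minutes and then received 4 injections of tamoxifen, 3 mg each, starting on the day after surgery. The mutant, PHDTiEC, carried Cdh5-CreERT2, a tamoxifen-inducible Cre driven by an endothelial promoter, with floxed alleles of Phd1, Phd2 and Phd3 (Phd1f/f, Phd2f/f and Phd3f/f), the oxygen-sensing prolyl hydroxylases also named Egln2, Egln1 and Egln3. The control was a Cre- littermate that underwent the same surgery and tamoxifen treatment, and the labels give no more of its genotype than Cre-. Leukocytes of the mutant therefore were not the targeted cells.

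With 1 library per genotype there was no replicate error, and genotype, mouse and library cannot be told apart. No test was made between the libraries. The ranges in parentheses are exact 95% intervals (Poisson for a level, Clopper-Pearson for a share or for a log2 ratio of PHDTiEC over Cre-), and they cover counting error only. The libraries held 136004367 (Cre-) and 146758812 (PHDTiEC) UMIs, and 8548 and 9309 barcodes were kept, with medians of 7500 and 7898 UMIs. Of the kept barcodes, 28 occurred in both libraries. In endothelial-like cells the transcripts of Egln1 and Egln3 were higher, not lower, in the library labelled PHDTiEC, with log2 ratios of 1.57 (1.34 to 1.81) for Egln1, -0.17 (-0.52 to 0.18) for Egln2 and 2.62 (2.28 to 2.99) for Egln3. A 3' tag may lie outside the deleted part of a gene, so these transcripts did not check the label, and PHDTiEC below stands for the library labelled so. The cause of the higher Egln1 and Egln3 levels was not tested.

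Formyl peptide receptors are Gi-coupled receptors of phagocytes. They sense peptides that begin with formylmethionine, which are released by bacteria and by the mitochondria of injured cells, and they drive chemotaxis, degranulation and the oxidative burst. Annexin A1 is a calcium- and phospholipid-binding protein that is induced by glucocorticoids, and when it is released it acts on these receptors to limit neutrophil recruitment and to favor the clearance of dying cells. FPR2 also binds serum amyloid A, cathelicidin and lipid mediators such as lipoxin A4.

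The receptor genes lie side by side, whereas Anxa1 is on another chromosome. On mouse build GRCm38 (the build named mm10 in the labels), Fpr1 (ENSMUSG00000045551) covers chr17:17876471-17883940 on the minus strand with 2 exons, and Fpr2 (ENSMUSG00000052270) covers chr17:17887824-17893952 on the plus strand with up to 3 exons. Their first transcribed bases, 17883939 and 17887824 in RefSeq, point away from each other and are 3885 bases apart. Anxa1 (ENSMUSG00000024659) covers chr19:20373428-20390944 on the minus strand, with 8 annotated transcripts of up to 14 exons. The annotation of Fpr3 overlaps that of Fpr2. The 90-base read could have come from either gene at 5 positions of their transcripts, none of them near the 3' end where the tags lie, and Fpr1 shared no 90-base stretch with any of the 6 other family members. Fpr3, Fpr-rs3, Fpr-rs4, Fpr-rs6 and Fpr-rs7 had 0 UMIs in leukocyte-like cells of either library, where 3 counts would be 0.0943 CPM (Cre-) and 0.0836 CPM (PHDTiEC).

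The 250 bases before each start site are shown because the receptors share a divergent arrangement and, in the levels below, much of their pattern. They are RefSeq sequence of GRCm38.p6, written in the direction of transcription, at chr17:17883940-17884189 (minus strand) for Fpr1, chr17:17887574-17887823 (plus strand) for Fpr2 and chr19:20390672-20390921 (minus strand) for Anxa1. Capitals mark matches on either strand to the PU.1 core GAGGAA, the C/EBP letters TTNNGNAA and the TATA letters TATAAA, PU.1 and C/EBP being transcription factors of the myeloid lineage.
Fpr1: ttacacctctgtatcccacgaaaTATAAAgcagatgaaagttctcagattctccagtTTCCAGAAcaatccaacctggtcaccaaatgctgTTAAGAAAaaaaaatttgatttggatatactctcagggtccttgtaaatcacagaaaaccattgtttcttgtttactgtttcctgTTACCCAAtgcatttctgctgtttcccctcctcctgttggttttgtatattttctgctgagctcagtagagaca
Fpr2: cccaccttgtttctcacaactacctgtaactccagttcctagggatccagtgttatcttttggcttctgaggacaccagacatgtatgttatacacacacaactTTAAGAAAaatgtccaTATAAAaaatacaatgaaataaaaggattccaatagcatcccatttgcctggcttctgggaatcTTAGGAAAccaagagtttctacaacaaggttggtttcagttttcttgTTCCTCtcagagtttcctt
Anxa1: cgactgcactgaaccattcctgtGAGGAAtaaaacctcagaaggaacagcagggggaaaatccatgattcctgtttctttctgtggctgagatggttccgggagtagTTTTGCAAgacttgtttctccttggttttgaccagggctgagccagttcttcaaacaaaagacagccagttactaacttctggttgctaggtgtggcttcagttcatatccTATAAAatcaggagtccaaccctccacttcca

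The C/EBP letters occurred 3 times before Fpr1, 2 times before Fpr2 and 1 time before Anxa1, and 36.8% of all 32851 promoter windows of this length held them. The PU.1 core occurred 1 time before Fpr2, 19 bases from the start, and 1 time before Anxa1, and it was not in the Fpr1 window (23.3% of windows). Each window held TATAAA 1 time (12.4% of windows), 32 bases before the start in Anxa1 but 227 and 130 bases before it in Fpr1 and Fpr2. The hypoxia response letters ACGTG (16.6% of windows) and GCGTG (28.2%) were in none of the 3 windows. Not capitalized were the ETS core GGAAG, 1 time in Anxa1 (64.1% of windows), the STAT letters TTCNNNGAA, 1 time in Fpr2 (7.02%), and the glucocorticoid receptor letters GGAACA, 1 time each in Fpr2 and Anxa1 (13.3%), which in Fpr2 shares letters with the PU.1 core. GGGACTTT, part of an NF-kB site, was in none (1.21%). Such matches are letters in a window and not sites shown to be bound.

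Fpr1 and Fpr2 were transcripts of neutrophil-, monocyte- and macrophage-like cells, cycling cells with macrophage markers and the unnamed leukocyte cluster 0 described below. There was little signal outside the leukocytes. In the cycling cells with macrophage markers Fpr1 was at 5.14 (Cre-) and 10.5 CPM (PHDTiEC), and Fpr2 at 8.39 and 16.5 CPM. Leukocyte-like cells, 4483 (Cre-) and 4778 (PHDTiEC) of the kept barcodes, held 250 of 267 and 613 of 648 Fpr1 UMIs, and 561 of 608 and 786 of 837 Fpr2 UMIs. The 4065 and 4531 other cells of the kidney held 17 and 35 Fpr1 UMIs (0.197 and 0.362 CPM) and 47 and 51 Fpr2 UMIs (0.543 and 0.527 CPM), although they were more deeply sequenced (medians 14544 and 13912 UMIs). Cell classes were named from marker genes, and the members were left out of the clustering.

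**Figure D1:**
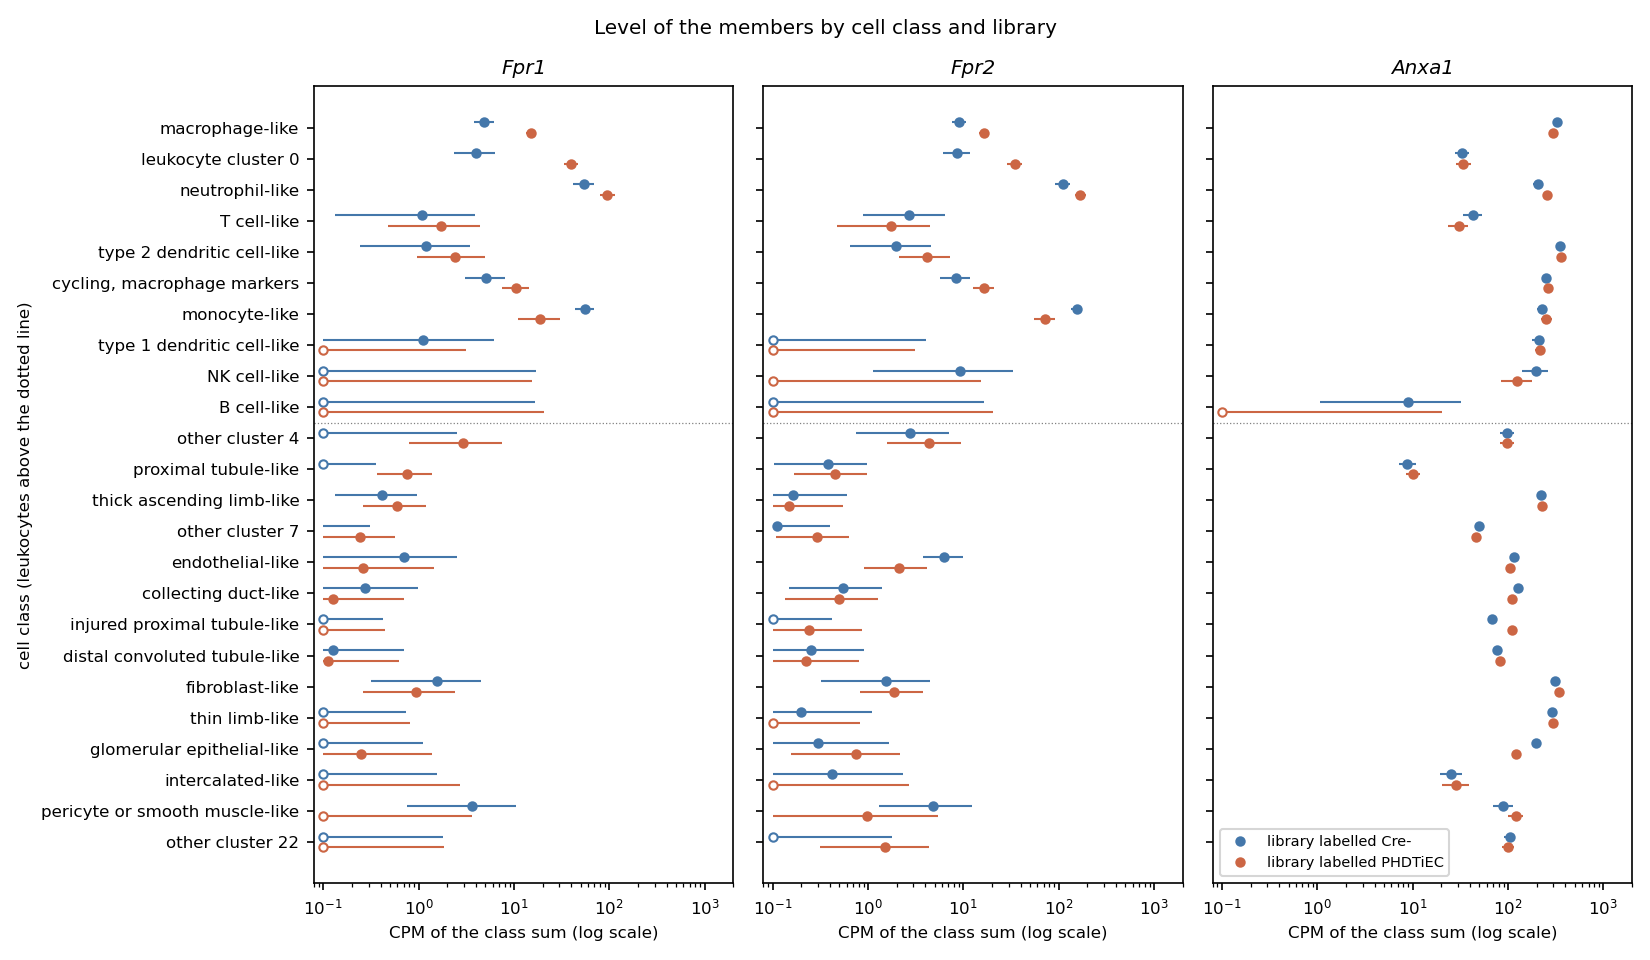
Level of Fpr1, Fpr2 and Anxa1 in each cell class with at least 50 cells in both libraries, in CPM of the class sum on a log scale, with exact Poisson 95% intervals (counting error only). Hollow points at 0.1 stand for classes with 0 UMIs, and intervals are truncated at 0.1. The receptors peaked in neutrophil-like and monocyte-like cells, except for Fpr1 in the PHDTiEC library. There leukocyte cluster 0 (39.5 CPM) was above monocyte-like cells (18.9 CPM). Anxa1 was spread over leukocytes and kidney epithelium.

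Neutrophil-like cells, in which formyl peptide receptors steer migration toward injured tissue, held both receptor transcripts. Their 621 (Cre-) and 650 (PHDTiEC) barcodes were shallow, with medians of 1758 and 1763 UMIs. The Fpr1 level was 54.0 CPM (41.5 to 69.1; 63 UMIs) in Cre- and 95.6 CPM (79.2 to 114; 119 UMIs) in PHDTiEC. The Fpr2 level was 110.6 CPM (92.3 to 131; 129 UMIs) in Cre- and 169.4 CPM (147 to 194; 211 UMIs) in PHDTiEC. Both receptor levels were thus higher in the PHDTiEC library, with intervals that did not overlap, and the log2 ratios were 0.82 (0.37 to 1.29) for Fpr1 and 0.62 (0.29 to 0.94) for Fpr2. Neither reached 2-fold, the size past which a gene is counted below, and 4.41% of the 6874 genes with at least 20 UMIs in these cells did.

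Of the 3 neutrophil-like clusters, the one led by Retnlg, S100a8 and S100a9 (L9) had the highest receptor levels. Fpr1 was at 116.7 (Cre-) and 189.8 CPM (PHDTiEC) there, against 17.8 and 54.0 CPM in the cluster led by Mmp9 and Il1r2 (L5) and 24.2 and 45.5 CPM in the cluster led by Il1f9 and Hcar2 (L12). Fpr2 was at 162.9 and 212.3 CPM in L9, 98.6 and 167.5 CPM in L5, and 48.3 and 117.1 CPM in L12. Every one of the 3 clusters had the higher level of each receptor in the PHDTiEC library, but the intervals of the log2 ratio included 0 for Fpr2 in L9 (0.38, -0.10 to 0.87) and for Fpr1 in L12 (0.91, -0.56 to 2.58). Of the 12 neutrophil markers 7 were higher in the PHDTiEC library and 2 lower by intervals that did not include 0, and the median log2 ratio was 0.15. The highest ratios were those of Ly6g, a surface marker of mature neutrophils (1.24), Wfdc21 (1.00) and Retnlg (0.86), and the lowest were those of Csf3r, the G-CSF receptor (-0.32), and Asprv1 (-0.18). The part of neutrophil state in the receptor levels was not tested.

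Monocyte-like cells went the other way, with both receptors lower in the PHDTiEC library. Fpr1 was at 55.1 CPM (43.3 to 69.2; 74 UMIs in 238 cells) in Cre- and 18.9 CPM (11.03 to 30.3; 17 UMIs in 158 cells) in PHDTiEC, a log2 ratio of -1.54 (-2.40 to -0.77). Fpr2 was at 154.1 CPM (134 to 177; 207 UMIs) and 72.4 CPM (55.9 to 92.2; 65 UMIs), a log2 ratio of -1.09 (-1.52 to -0.68). Both passed 2-fold, as did 5.95% of the 7463 genes with at least 20 UMIs in these cells (127 higher and 317 lower in PHDTiEC).

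The makeup of the monocyte-like class differed between the libraries, and its clusters did not share 1 ratio. The cluster led by Adgre4, Treml4 and Ace (L13), genes of patrolling monocytes, held 155 cells of the Cre- and 65 of the PHDTiEC library, and the cluster led by Chil3 and Ly6c2 (L14), genes of classical monocytes, held 83 and 93. Fpr1 was nearly confined to L13, with 71 and 17 UMIs (88.7 and 56.6 CPM; log2 ratio -0.65, -1.505 to 0.13), against 3 and 0 UMIs in L14. Fpr2 was at 209.9 and 166.5 CPM in L13 (-0.33, -0.82 to 0.13) and at 71.9 and 25.1 CPM in L14 (-1.52, -2.48 to -0.63). With both clusters weighted equally, an alternative chosen after seeing the data, the ratios of the class were -0.73 for Fpr1 and -0.56 for Fpr2. The summed level of the 12 neutrophil markers in the class was 4433 and 3303 CPM, against 75357 and 84243 CPM in neutrophil-like cells, and its part in the receptor levels was not tested. A lower Fpr2 level in L14 was therefore the only receptor difference within a monocyte-like cluster whose interval did not include 0.

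Macrophage-like cells, the largest leukocyte class with 1535 (Cre-) and 1908 (PHDTiEC) cells, had low levels of both receptors, and these were higher in the PHDTiEC library. Fpr1 was at 4.90 CPM (3.82 to 6.19; 70 UMIs) in Cre- and 15.2 CPM (13.5 to 17.1; 282 UMIs) in PHDTiEC, a log2 ratio of 1.64 (1.25 to 2.03). Fpr2 was at 9.10 CPM (7.61 to 10.8; 130 UMIs) and 16.5 CPM (14.7 to 18.4; 305 UMIs), a log2 ratio of 0.86 (0.55 to 1.16). Of 12599 genes with at least 20 UMIs in these cells, 2.56% passed 2-fold in either direction, and the median log2 ratio was 0.04. Since the members were chosen with this comparison in view, nothing is read from that share.

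The higher Fpr1 level was seen in each macrophage-like cluster with enough UMIs to compare. The cluster led by Ccl8, Mrc1 and Pf4 (L1), genes of resident-like macrophages, went from 14.7 CPM (39 UMIs) to 35.0 CPM (136 UMIs), the highest Fpr1 level of any macrophage-like cluster in either library. The cluster led by Gpnmb, Arg1 and Trem2 (L2), genes of lipid-handling macrophages, went from 3.31 to 7.76 CPM, and the cluster led by Ms4a7, Cx3cr1 and Apoe (L3) from 1.56 to 9.18 CPM. In the cluster led by Cxcl9 and interferon-response genes (L11) there were 2 UMIs in 135 cells of the Cre- library and 37 UMIs in 184 cells of the PHDTiEC library. The log2 ratios were 1.25 (0.73 to 1.80) in L1, 1.23 (0.55 to 1.96) in L2, 2.56 (1.198 to 4.27) in L3 and 3.65 (1.70 to 6.75) in L11. A last, shallow cluster (L6, median 744.5 UMIs) held 0 and 2 Fpr1 UMIs.

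Fpr2 differed less between the libraries than Fpr1 in the point values of these clusters. Its log2 ratios were 1.05 (0.49 to 1.63) in L1, 0.26 (-0.27 to 0.79) in L2, 1.05 (0.23 to 1.93) in L3 and 0.95 (0.26 to 1.68) in L11. In L2 the levels, 7.03 and 8.397 CPM, could not be told apart by counting error. The highest Fpr2 level of a macrophage-like cluster was in the interferon-response cluster L11, at 27.7 and 53.4 CPM.

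**Figure D2:**
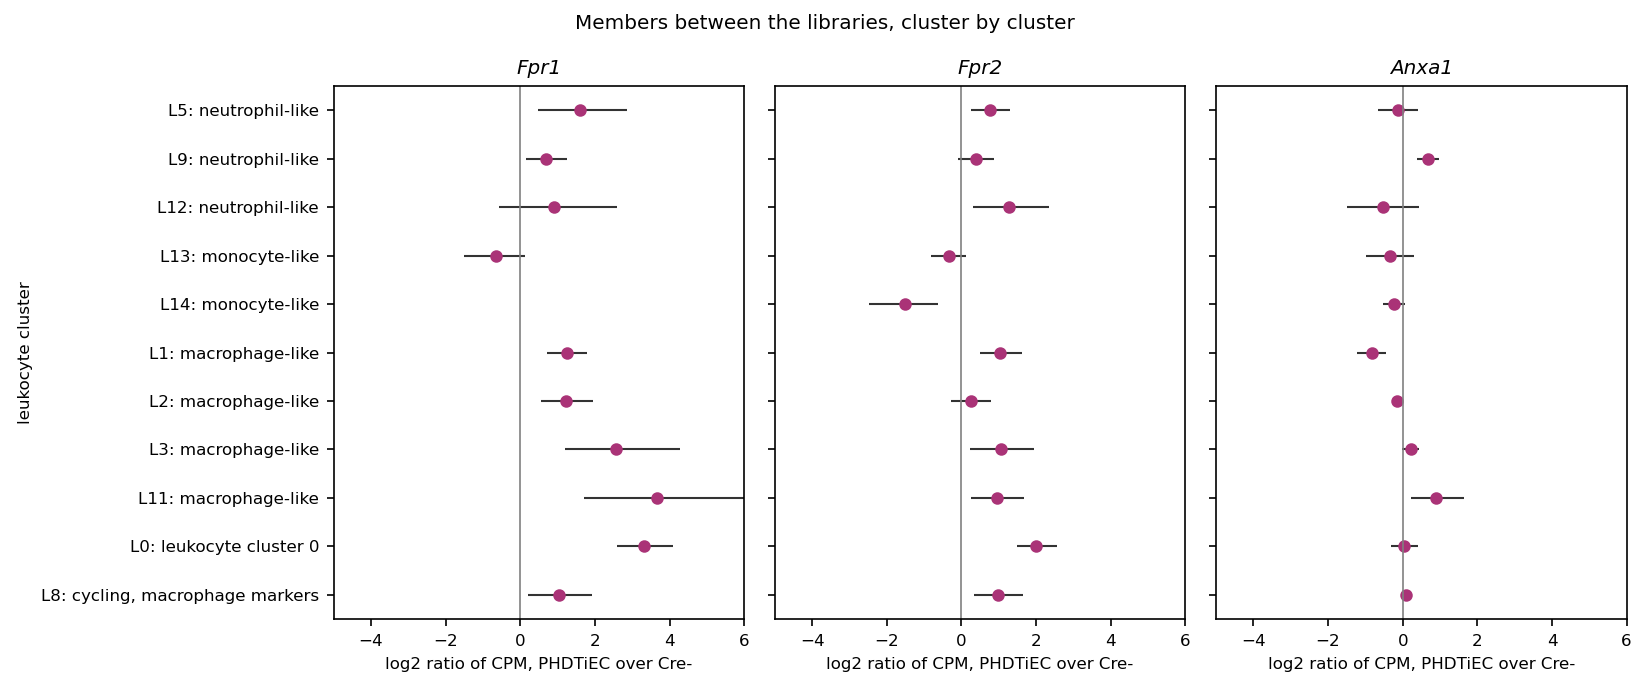
Log2 ratio of CPM, PHDTiEC over Cre-, of Fpr1, Fpr2 and Anxa1 in each leukocyte cluster where a receptor had at least 20 UMIs, shown for genes with that many, with exact Clopper-Pearson 95% intervals (counting error only, truncated at 6). Receptor ratios lay above 0 in the neutrophil-like, macrophage-like, cycling (L8) and leukocyte 0 (L0) clusters and below it in the monocyte-like clusters (L13 and L14), and Anxa1 ratios lay between -0.83 and 0.90.

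The largest receptor differences of any class were in a cluster of 823 (Cre-) and 654 (PHDTiEC) cells led by Cd72, Lilra5, Mgl2 and genes of MHC class II. It expressed 11 of the 12 macrophage markers, and the macrophage list scored highest for it (1.41, against 0.58 for type 2 dendritic cells). It was left unnamed, as leukocyte cluster 0, since its leading genes held 0 macrophage markers but held Mgl2, a listed marker of type 2 dendritic cells. Fpr1 was found in 13 cells (18 UMIs, 4.001 CPM) of the Cre- library and in 88 cells (144 UMIs, 39.5 CPM) of the PHDTiEC library. Fpr2 was found in 28 cells (39 UMIs, 8.67 CPM) and in 86 cells (127 UMIs, 34.8 CPM). Their log2 ratios were 3.30 (2.59 to 4.10) and 2.01 (1.48 to 2.56). Of the 10031 genes with at least 20 UMIs in this cluster, 5 and 10 had a higher ratio than Fpr1 and Fpr2, respectively. In either direction, 2.87% of those genes passed 2-fold. Since the members were chosen with such differences in view, nothing is read from these ranks or that share. Counted together with the macrophage-like cells, which was an alternative chosen after seeing the data, cluster 0 brought the macrophage-like log2 ratio of Fpr1 to 2.04.

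The shares of cells with a UMI differed between the libraries in the same directions as the levels. Among leukocyte cluster 0 the share with an Fpr1 UMI was 1.58% (0.84 to 2.69) in Cre- and 13.5% (10.9 to 16.3) in PHDTiEC, among macrophage-like cells 3.32% and 9.07%, among neutrophil-like cells 7.09% and 13.1%, and among monocyte-like cells 21.8% and 8.23%. In T cell-like cells, which were not expected to express the gene, it was 0.404% (0.049 to 1.45; 2 of 495 cells) and 0.328% (0.040 to 1.18; 2 of 609), at medians of 3116 and 3274 UMIs against 5404 and 5576 in cluster 0. For Fpr2 the T cell-like shares were 0.808% and 0.493%, against 4.69% and 9.28% of macrophage-like and 50.8% and 26.6% of monocyte-like cells. All of these myeloid shares exceeded the T cell-like background, but for Fpr1 in cluster 0 of the Cre- library the intervals overlapped. After each cell was thinned to 1000 UMIs, with shallower cells left out, the Fpr1 shares were 0.339% and 3.56% in cluster 0, 0.542% and 1.75% in macrophage-like, 4.57% and 7.56% in neutrophil-like, 6.43% and 2.35% in monocyte-like, and 0.054% and 0.111% in T cell-like cells.

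Over all leukocyte-like cells a single cell gave little of the sums. Most positive cells held 1 UMI: of the 173 macrophage-like cells with Fpr1 in the PHDTiEC library, 119 had 1 UMI, 43 had 2 or 3, and 11 had 4 or more, with a highest value of 10. The cell with the most Fpr1 UMIs gave 2.80% (Cre-) and 1.63% (PHDTiEC) of the leukocyte sum, and the one with the most Fpr2 UMIs gave 3.39% and 3.31%. In smaller sums 1 cell weighed more: it gave 19 of 51 Fpr2 UMIs (37.3%) in L2 of the Cre- library and 26 of 61 (42.6%) in the cycling cluster L8 of the PHDTiEC library, and 6 of 24 Fpr1 UMIs (25%) in L2 of the Cre- library.

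In all leukocyte-like cells together the receptor ratios partly canceled. Fpr1 was at 7.86 CPM in Cre- and 17.1 CPM in PHDTiEC, a log2 ratio of 1.12 (0.91 to 1.34), and it passed 2-fold, as did 2.4% of 14500 genes. Fpr2 was at 17.6 and 21.9 CPM, a log2 ratio of 0.31 (0.15 to 0.47). Macrophage-like cells held 28.0% (22.5 to 34.0) of the leukocyte Fpr1 UMIs in Cre- and 46.0% (42.0 to 50.04) in PHDTiEC, and leukocyte cluster 0 held 7.20% and 23.5%, while the monocyte-like share was 29.6% (24.0 to 35.7) and 2.77% (1.62 to 4.40). For Fpr2 the macrophage-like share was 23.2% and 38.8% and the monocyte-like share 36.9% and 8.27%. Neutrophil-like cells held only 25.2% and 19.4% of the Fpr1 UMIs and 23.0% and 26.8% of the Fpr2 UMIs of leukocytes.

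**Figure D3:**
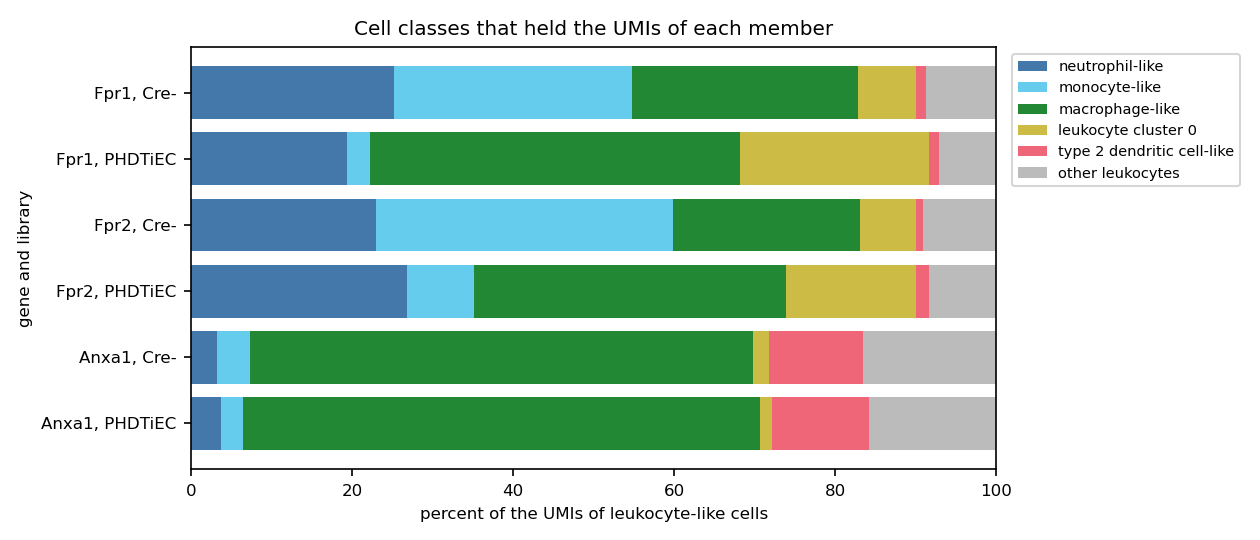
Percent of the UMIs of each member in leukocyte-like cells that lay in each cell class, in the Cre- and PHDTiEC libraries. For both receptors the macrophage-like and cluster 0 bars were wider and the monocyte-like bars narrower in the PHDTiEC library, and the bars of Anxa1 were nearly alike.

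Whether receptor UMIs outside neutrophil-like cells could be neutrophil RNA was examined from S100a8 and S100a9, the calprotectin genes, which are among the most abundant transcripts of neutrophils and are also made by monocytes. In neutrophil-like cells 1000 S100a8 and S100a9 UMIs came with 0.812 (Cre-) and 1.29 (PHDTiEC) Fpr1 UMIs and with 1.66 and 2.29 Fpr2 UMIs. At those ratios, the 2279 and 2836 S100a8 and S100a9 UMIs of the macrophage-like cells would have brought 1.85 and 3.66 Fpr1 UMIs, where 70 and 282 were counted, 37.8 (29.5 to 47.8) and 77.0 (68.3 to 86.5) times as many. For Fpr2 the counts were 34.3 and 47.0 times as many. These multiples rest on the ratio seen in neutrophil-like cells, which free RNA did not keep. Barcodes under 100 UMIs held 1669 (Cre-) and 2029 (PHDTiEC) S100a8 UMIs and 1772 and 1923 S100a9 UMIs. Beside them stood 8 and 18 Fpr1 UMIs and 37 and 31 Fpr2 UMIs, also more than those ratios would bring. The part of neutrophil RNA in the receptor UMIs of macrophage-like cells was not tested.

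The margin was widest in leukocyte cluster 0 and narrowest in T cell-like cells. Cluster 0 held only 61 and 40 S100a8 and S100a9 UMIs, so that neutrophil RNA would have brought 0.050 and 0.052 Fpr1 UMIs and 0.101 and 0.092 Fpr2 UMIs. Its summed level of the 12 neutrophil markers was 59.4 and 59.2 CPM, of which Csf3r made 38.9 and 43.9 CPM, and Ly6g was at 0 UMIs in both libraries. In T cell-like cells 2 and 4 Fpr1 UMIs stood beside 0.524 and 1.61 that neutrophil RNA would have brought (3.82, 0.46 to 13.8, and 2.48, 0.68 to 6.36, times as many). Monocyte-like cells held 74 and 17 Fpr1 UMIs beside 3.85 and 3.06.

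Cells with no S100a8 or S100a9 UMI at all still held the receptors. Among such macrophage-like cells, 34 of 1274 (2.67%, 1.85 to 3.71) in Cre- and 135 of 1613 (8.37%, 7.06 to 9.83) in PHDTiEC had an Fpr1 UMI. In cluster 0 these were 11 of 767 (1.43%) and 81 of 619 (13.1%). When only barcodes without these UMIs were summed, an alternative chosen after seeing the data, the log2 ratio of Fpr1 over all leukocyte-like cells was 1.501, and that of Fpr2 in macrophage-like cells was 1.27.

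**Figure D4:**
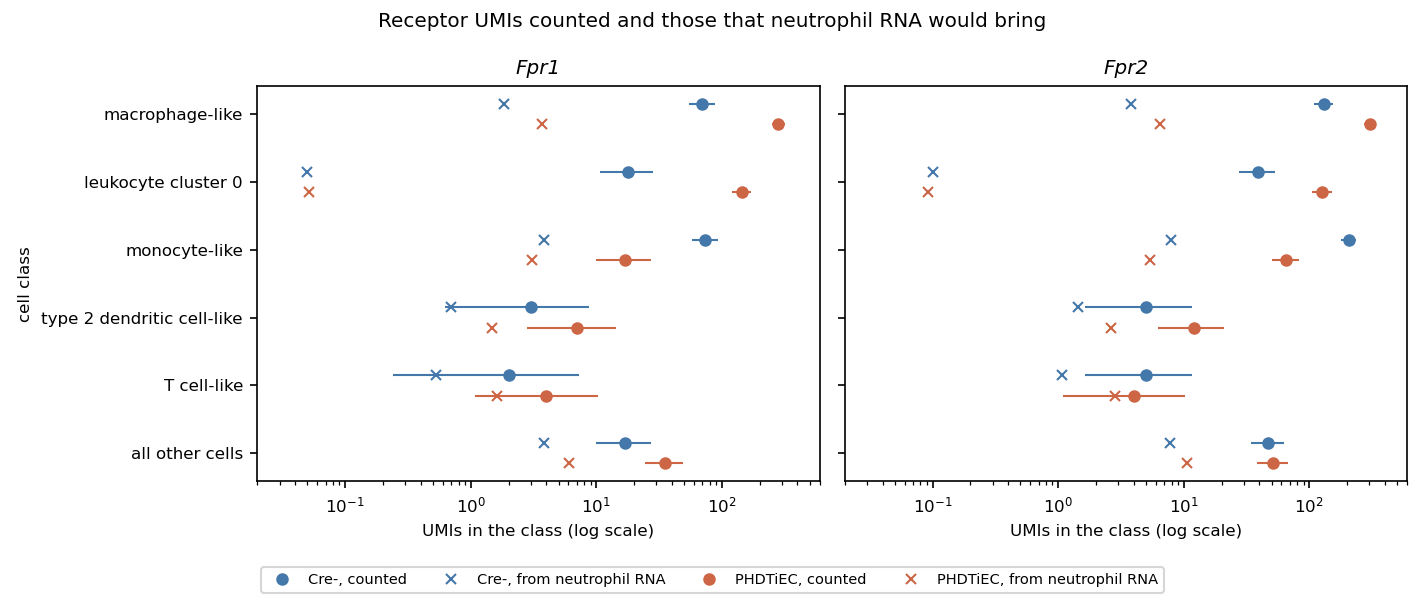
UMIs of Fpr1 and Fpr2 counted in cell classes other than neutrophil-like cells (points, with exact Poisson 95% intervals for counting error), beside the number that the S100a8 and S100a9 UMIs of the class would bring at the ratio of the neutrophil-like cells of that library (crosses), on a log scale. Points and crosses lay furthest apart in leukocyte cluster 0 and nearest in T cell-like cells.

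Free RNA was also read from barcodes under 100 UMIs. These held 8 and 18 Fpr1 UMIs (1.66 and 2.96 CPM) and 37 and 31 Fpr2 UMIs (7.67, 5.40 to 10.6, and 5.09, 3.46 to 7.23 CPM). The Fpr1 level in macrophage-like cells of the Cre- library (4.90 CPM) was above that of free RNA by intervals that did not overlap, but the Fpr2 level there (9.10 CPM, 7.61 to 10.8) was not. In the PHDTiEC library both were above it. In cluster 0 of the Cre- library the intervals of both receptors, 4.001 CPM (2.37 to 6.32) and 8.67 CPM (6.16 to 11.9), overlapped those of free RNA (0.716 to 3.27 for Fpr1), while in the PHDTiEC library both were above it. For Fpr1 in the Cre- library the same overlap held in L2 (2.12 to 4.92), L3 (0.506 to 3.63) and L11 (0.279 to 8.33), and L1 (10.5 to 20.1) was the macrophage-like cluster above it. For Fpr2 in the Cre- library the intervals of L1 (9.52 to 18.8), L2 (5.23 to 9.24) and L3 (3.32 to 8.86) overlapped that of free RNA, and L11 (17.7 to 41.2) was above it. In the PHDTiEC library that of L2 (6.65 to 10.5) overlapped it, while L1, L3 and L11 were above it. Free RNA made up an estimated 16.2% and 19.6% of the UMIs of macrophage-like cells, from tubule transcripts, so that its contribution to a level is a fraction of these values.

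Cells with UMIs of both receptors were few in absolute number. In macrophage-like cells 13 (0.847%) of the Cre- and 56 (2.94%) of the PHDTiEC library had both, beside 38 and 117 with Fpr1 alone and 59 and 121 with Fpr2 alone. In cluster 0 these were 5 and 35 with both, 8 and 53 with Fpr1 alone, and 23 and 51 with Fpr2 alone. In monocyte-like cells 33 (13.9%) and 9 (5.70%) had both, and 88 and 33 had Fpr2 alone. At so few UMIs per positive cell, a missing UMI does not show that a cell lacked the transcript.

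Anxa1 was found across leukocytes and kidney cells, with little difference between the libraries in leukocytes as a whole. The level in leukocyte-like cells was 236.3 CPM (231 to 242; 7516 UMIs) in Cre- and 238.5 CPM (234 to 244; 8559 UMIs) in PHDTiEC, a log2 ratio of 0.01 (-0.03 to 0.06). Of the 14500 genes compared, 7554 had a higher ratio and 6945 a lower one. In the other cells the level was 113.3 and 117.4 CPM, a log2 ratio of 0.05 (0.01 to 0.09).

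Among leukocytes the Anxa1 transcript was concentrated in 1 macrophage-like cluster. The cluster led by Gpnmb, Arg1 and Trem2 (L2) held 4215 (Cre-) and 4924 (PHDTiEC) of the leukocyte UMIs of Anxa1, at 580.7 and 523.4 CPM, and 90.9% and 89.6% of its cells had a UMI. The resident-like cluster L1 was at 44.9 and 25.2 CPM, L3 at 88.8 and 103.2 CPM, and the interferon-response cluster L11 at 27.7 and 51.8 CPM. Leukocyte cluster 0, where the receptor ratios were largest among the leukocyte classes, was at 32.9 and 34.0 CPM, below the 133.5 and 139.2 CPM of barcodes under 100 UMIs. The levels of L1, L3 and L11 were also below these. L2 was thus the macrophage-like cluster with the most Anxa1, while L1 and L11 had the most Fpr1 and Fpr2, respectively.

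Of the other leukocytes, type 2 dendritic cell-like cells were highest, at 349.2 and 358.4 CPM with 82.0% and 85.0% of cells positive. Cycling cells with macrophage markers were at 249.1 and 263.1 CPM. Monocyte-like cells were at 227.9 and 252.7 CPM, type 1 dendritic cell-like cells at 209.4 and 217.6 CPM and neutrophil-like cells at 206.6 and 258.6 CPM, and the order of these 3 classes was not the same in both libraries. Within monocyte-like cells L14, led by Chil3 and Ly6c2, was at 390.8 and 332.8 CPM and L13 at 117.4 and 93.3 CPM, the reverse of the order for the receptors. T cell-like cells were at 42.5 and 30.5 CPM, and B cell-like cells held 2 and 0 UMIs, where 3 counts would be 13.4 and 16.7 CPM.

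Outside the leukocytes, fibroblast-like (309.8 and 345.9 CPM), urothelial-like (328.5 and 300.8 CPM) and thin limb-like cells (286.8 and 299.98 CPM) were highest, and the highest of them was not the same class in both libraries. Thick ascending limb-like cells were at 221.9 and 227.6 CPM. Proximal tubule-like cells were at 8.84 and 10.1 CPM. Injured proximal tubule-like cells, named from markers such as Havcr1 and Vcam1, were at 68.3 (63.0 to 74.0) and 109.3 CPM (102 to 117), a log2 ratio of 0.68 (0.53 to 0.83). Glomerular epithelial-like cells had the opposite difference, at 196.4 and 122.6 CPM (-0.68, -0.85 to -0.51). Of the levels of these proximal tubule and glomerular classes, only the glomerular one in Cre- was above that of free RNA (133.5 and 139.2 CPM). The part of free RNA in their ratios was not tested. In endothelial-like cells, the targeted cells of the mutant, Anxa1 was at 116.6 and 105.8 CPM (-0.14, -0.35 to 0.07), and Fpr2 had 18 and 8 UMIs (6.32 and 2.11 CPM; -1.58, -2.99 to -0.31), neither level being above the free RNA level of its gene in that library.

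Between the libraries Anxa1 differed by less than 2-fold in every leukocyte class with at least 20 UMIs but cycling cells with T cell markers, which held 6 and 19 UMIs (1.27, -0.11 to 2.88). In macrophage-like cells it was at 328.8 and 296.8 CPM (-0.15, -0.20 to -0.09), and in neutrophil-like cells the log2 ratio was 0.32 (0.08 to 0.57), set by cluster L9 (384.2 and 609.4 CPM; 0.67, 0.37 to 0.96) and not by L5 (-0.13, -0.67 to 0.41). L9 was also the neutrophil-like cluster with the most Fpr1 and Fpr2. In L1 the log2 ratio was -0.83 (-1.23 to -0.44) and in L11 0.90 (0.21 to 1.64). By these values the receptors were higher in the PHDTiEC library in both clusters, while Anxa1 was lower in the first and higher in the second. The Anxa1 levels of L1 (44.9 and 25.2 CPM) and L11 (27.7 and 51.8 CPM) were below those of barcodes under 100 UMIs (133.5 and 139.2 CPM). The part of free RNA in these 2 ratios was not tested.

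Receptor and ligand transcripts were found together in a small share of macrophage-like cells and in a larger share of monocyte-like cells. In macrophage-like cells 51 (3.32%) of the Cre- and 97 (5.08%) of the PHDTiEC library had a receptor UMI and an Anxa1 UMI, in cluster 0 these were 4 and 19 cells, and in monocyte-like cells 68 (28.6%) and 16 (10.1%). Anxa1 was found in 46.4% (Cre-) and 33.0% (PHDTiEC) of macrophage-like cells with a receptor UMI and in 40.4% and 41.1% of those without, at median depths of 7938 and 8092.5 UMIs against 7300 and 7630.5. In neutrophil-like cells the shares were 40.2% and 32.4% with, and 21.5% and 22.9% without, a receptor UMI, at medians of 1915 and 1951 against 1712.5 and 1701.5 UMIs. In monocyte-like cells they were 48.6% and 34.8% with, and 57.1% and 56.2% without, at medians of 5345.5 and 4702 against 5913 and 6005 UMIs. The receptor-positive cells thus held Anxa1 more often than the others in neutrophil-like cells of both libraries and less often in monocyte-like cells of both, by point value and at unequal depths. These shares pool clusters that differed in both kinds of transcript. L9 was the neutrophil-like cluster highest in the receptors and in Anxa1, and L13 was above L14 in the receptors and below it in Anxa1. The part of cluster makeup was not tested.

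Across the 24 cell classes with at least 50 cells, in both libraries (48 class sums), Fpr1 and Fpr2 were each other's nearest gene, with a Pearson r of log-scaled levels of 0.93. After Fpr2, the genes most like Fpr1 were Gm5150, Sirpb1b, F630028O10Rik and Lst1 (r from 0.89 to 0.90), and after Fpr1, those most like Fpr2 were Cd300ld, Gm5150, Trem3 and Emilin2 (0.89 to 0.90). Anxa1 was most like Itpripl2, Rap2a, Anxa2, Actg1 and Rab3d (0.71 to 0.74), and its r with the receptors was 0.28 for Fpr1 and 0.31 for Fpr2. The class sums share libraries and depth and are not independent points, so these values only describe the order.

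The genes near the receptors did not share their difference. Of 5 other genes within 500 kb with at least 20 UMIs in macrophage-like cells, named here after their values were seen, Riok2, Lix1, Lnpep and Spaca6 had log2 ratios from -0.44 to 0.43, and Has1, a hyaluronan synthase, had 26 UMIs in Cre- and 2 in PHDTiEC (-4.08, -7.20 to -2.08). In cluster 0 the 3 neighbors with enough UMIs were between -0.94 and 0.13.

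The remaining genes of the pathway were taken from lists made with earlier results of these data known. In macrophage-like cells Saa3 and Mmp9, described below, were those past 2-fold, but most Saa3 UMIs of the Cre- library there came from 1 cell. Of the 8 other chemoattractant receptors none passed 2-fold: C5ar1, the complement C5a receptor, was at 157.4 and 158.4 CPM, C3ar1 at 336.5 and 376.1 CPM, and the platelet-activating factor receptor Ptafr at 150.4 and 177.6 CPM, and the lowest log2 ratio was that of Ltb4r1, the leukotriene B4 receptor (-0.80, -1.27 to -0.34). The median of that list was 0.00, against 0.04 over all genes. The 12 Gi signaling genes had a median of 0.09 (from -0.14 to 0.40) and the 6 NADPH oxidase genes, which make the oxidative burst, 0.01 (from -0.15 to 0.16), with none past 2-fold. Of the 8 lipid mediator enzymes none passed 2-fold, the lowest being Alox15 (16 and 13 UMIs, -0.67) and Alox5, the 5-lipoxygenase (-0.62, -0.97 to -0.27).

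The other annexins lay on both sides of 0. Of 9 annexins with at least 20 UMIs in macrophage-like cells, Anxa1 among them, none passed 2-fold, and the median of the 9 was -0.06. Anxa2 was at -0.30 (-0.36 to -0.24), Anxa5 at -0.06 (-0.10 to -0.02), Anxa3 at 0.03 (-0.02 to 0.08) and Anxa9, from 14 and 34 UMIs, at 0.91 (-0.03 to 1.92). The S100 partners of annexins were all lower in PHDTiEC by point value, with a median of -0.28. The 8 glucocorticoid response genes, among which Anxa1 is often counted, had a median of 0.33 in macrophage-like cells, where Tsc22d3, which encodes GILZ, was at 62.2 and 101.0 CPM (0.70, 0.58 to 0.82), Klf9 at 39.2 and 58.0 CPM (0.56) and Per1 at 22.8 and 33.0 CPM (0.54), and none passed 2-fold. In cluster 0 Tsc22d3 was at 63.6 and 142.6 CPM (1.17, 0.95 to 1.38) and Per1 at 24.2 and 48.3 CPM (0.99), and Tsc22d3 was the only one of the 8 past 2-fold there.

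The other ligands of FPR2 that could be compared, Saa3 and Camp, were lower in the PHDTiEC library, with most UMIs from few cells. Saa3, a serum amyloid A gene, had 1341 UMIs in leukocyte-like cells of the Cre- and 417 of the PHDTiEC library (-1.86, -2.02 to -1.70), in 71 cells of each, and 1 macrophage-like cell gave 670 of the 1341. In macrophage-like cells, where the log2 ratio of Saa3 was -2.23, the listed ligands together had 977 and 271 UMIs. That 1 cell thus gave most of the Cre- UMIs of the class, and the ratio without it was not calculated. Camp, the cathelicidin gene, had 356 and 2 UMIs, of which 341 were from 1 cycling cell with macrophage markers. In monocyte-like cells Saa3 was at 157.1 and 29.0 CPM (-2.44, -3.09 to -1.85). Of the proteinases that can cleave annexin A1, Mmp9 was past 2-fold lower in macrophage-like cells of the PHDTiEC library (9.80 and 4.54 CPM; -1.11, -1.52 to -0.71), and Prtn3, Adam10 and Adam17 did not pass 2-fold. The neutrophil markers of macrophage-like cells summed to 238.9 and 232.6 CPM, most of it from S100a8 and S100a9. Of the 11 markers with at least 20 UMIs there, 2 were higher in the PHDTiEC library (Wfdc21 at 0.89 and Csf3r at 0.24) and 3 lower by intervals that did not include 0, from a range of -1.09 (Retnlg) to 0.89, and their part in the receptor levels was not tested.

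**Figure D5:**
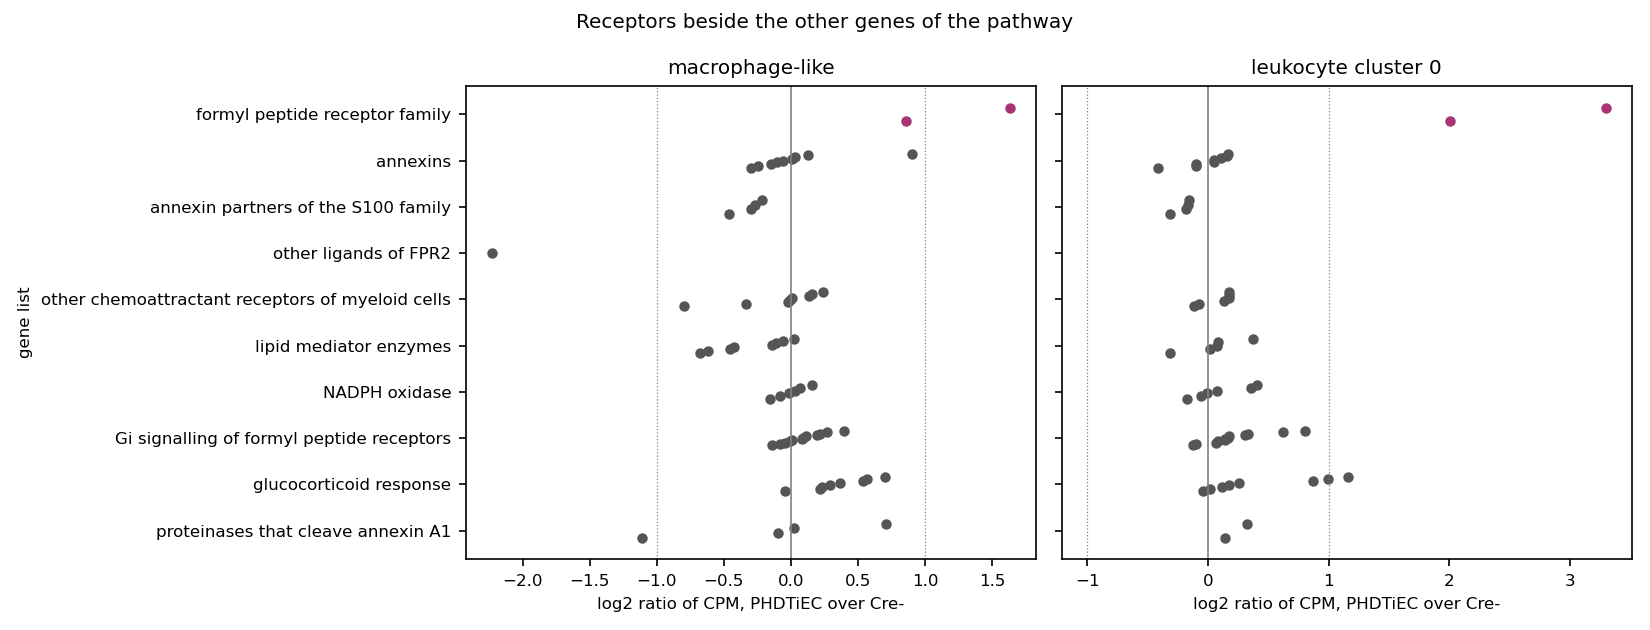
Log2 ratio of CPM, PHDTiEC over Cre-, of each gene with at least 20 UMIs in the 10 pathway lists (neutrophil markers not included), in macrophage-like cells and in leukocyte cluster 0. Dotted lines mark 2-fold. The receptors (purple) lay at 1.64 and 0.86 in macrophage-like cells and at 3.30 and 2.01 in cluster 0, and the other genes plotted lay within 2-fold but for Saa3 and Mmp9 in macrophage-like cells and Tsc22d3 in cluster 0. Most Saa3 UMIs of the Cre- macrophage-like cells came from 1 cell.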

How the data were processed

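Kidney cells of 2 mice were profiled by droplet sequencing of 3' transcript ends (2 libraries, 1 per genotype). The authors made unfiltered matrices of UMI counts per gene and barcode with Cell Ranger 4 (per the matrix header) on mm10, and these deposited counts were used as they are, with 6794880 barcodes listed per library. Depth sets the counting error and is given with the results.

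Kept barcodes had 500 to 100000 UMIs, at least 200 genes and at most 50% mitochondrial UMIs. They were clustered in Seurat 5.3.0 (R 4.3.3) on counts scaled to 10000 and log-transformed, with 2000 variable genes (members left out), 20 principal components and resolution 0.8, and leukocyte clusters were clustered again at the same settings. Clusters were named by marker lists. Doublets were not removed in the values reported; an alternative removed the 7% of barcodes with the most simulated-doublet neighbors. Counts were summed by class and library, and with 1 library per genotype no test was made. Genes named were the members, Egln1 to Egln3, the genes of the pathway lists and the 5 genes nearest each member in level, and others are said to have been chosen after their values were seen. The members and lists were chosen with earlier results of these data known. Calculations used Python 3.11.15, scipy 1.17.1 and edgeR 4.0.16 (TMM scaling as an alternative), and the interval and thinning steps were tested on simulated data. Gene positions are GENCODE vM21 and promoters RefSeq GRCm38.p6.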

Additional observations from a re-analysis of the deposited data

Results flagged for a closer look

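The receptor log2 ratios of the monocyte-like cells had the opposite sign to those of the other myeloid classes, which flagged them as a difference between groups. For Fpr1 the ratio was -1.54 in monocyte-like cells, beside 1.64 in macrophage-like cells, 3.30 in leukocyte cluster 0 and 0.82 in neutrophil-like cells. For Fpr2 it was -1.09, beside 0.86, 2.01 and 0.62 in the same classes. The difference was not tested, since each class had 1 library per genotype. Within the monocyte-like cluster that held most Fpr1 UMIs, the ratio of Fpr1 was -0.65 with an interval that included 0 (-1.50 to 0.13), and the 2 clusters of the class contributed 155 and 83 cells in Cre- against 65 and 93 cells in PHDTiEC.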

How the results depend on the processing

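Over 165 alternative values of the 12 member log2 ratios, 146 stayed within the counting interval of the reported value, 19 left it, and none with an interval excluding 0 changed sign. No paired analysis was possible because each genotype had 1 library. With barcodes assigned one by one by marker share, the log2 ratio of Fpr2 was 0.21 in neutrophil-like, -0.49 in monocyte-like and 1.18 in macrophage-like cells, and that of Anxa1 in all leukocyte-like cells 0.065. As a mean over cells of counts per 10000, Anxa1 was at 0.060 in leukocyte-like and -0.052 in macrophage-like cells, and Fpr2 at 1.24 in macrophage-like cells. At resolution 0.4 the macrophage-like ratios were 2.04 (Fpr1) and -0.035 (Anxa1), and with simulated doublets removed that of Anxa1 was -0.21. The Anxa1 share in neutrophil-like cells was 3.83% with a complexity filter (log10 genes over log10 UMIs of at least 0.8) and 3.87% without simulated doublets, against 3.50%. Of the alternatives chosen after seeing the data, equal cluster weights gave -0.73 (Fpr1), -0.56 (Fpr2) and -0.25 (Anxa1) in monocyte-like cells. Barcodes without S100a8 or S100a9 UMIs gave 1.501 (Fpr1) and 0.48 (Fpr2) in leukocyte-like, -1.62 (Fpr2) in monocyte-like and 1.27 (Fpr2) in macrophage-like cells, and cluster 0 counted as macrophage-like gave 2.04 (Fpr1) and -0.024 (Anxa1). The count of genes past 2-fold depended on the UMI minimum, as fewer or more genes were compared: with at least 1 or 100 UMIs in place of 20, it was 4172 or 68 in leukocyte-like cells (348 reported), 4977 or 18 in neutrophil-like (303), 4440 or 49 in monocyte-like (444) and 4001 or 41 in macrophage-like cells (323). For the other values that moved, the cause was not tested. Depth limits the receptors most: positive cells held mostly 1 UMI, and differences in a cluster with under 20 UMIs were not compared.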
